A study of Mus musculus with 3 samples.

Results

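The 36 genes described here encode the lysosome's proton pump and the proteins that work beside it: 16 subunits and accessory subunits of the vacuolar ATPase, 3 genes of chloride exchange and ruffled border traffic, 8 cathepsins, 5 lysosomal membrane proteins, and 4 genes of regulation and the lumen (Tfeb, Hexa, Grn and Psap). They were chosen by name and role from the 32285 genes counted. All 36 were detected in each of the 3 libraries, and together they held 2.06% of the UMIs of the kept myeloid cells and 0.693% and 0.692% of those of the stromal libraries of day 0 and day 5.

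The study followed K/BxN serum transfer arthritis, in which serum of arthritic K/BxN mice, rich in antibodies that form immune complexes in joints, is injected into the peritoneum of other mice and their paws swell. Cells were freed from hind paws with collagenase and DNase after skin, muscle and tendons had been removed, and were sorted before single-cell 3′ sequencing. The myeloid library held CD45+CD11b+Ly6G- cells of day 9 after serum transfer, and the stromal libraries held CD45- cells at day 0, the steady state, and at day 5. The strain, the age and the number of mice behind each library are not given in the sources used here. There was 1 library per group, so day, animals and library cannot be told apart, no test between conditions was possible, and every 95% interval below covers counting error only.

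The vacuolar ATPase has a membrane sector, through which protons pass, and a cytosolic sector, which splits ATP to drive them into lysosomes. The acid lets cathepsins and glycosidases digest proteins and sugar chains, while heavily glycosylated membrane proteins such as LAMP1 and LAMP2 line the compartment from the inside. Osteoclasts, the bone-resorbing cells of the myeloid lineage, send this machinery to the cell surface facing bone, the ruffled border, where protons dissolve mineral and the secreted cathepsin K degrades collagen. Many lysosomal genes carry a short palindrome near their start that transcription factors of the TFEB and MITF family are known to bind.

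Because the palindrome is a feature these genes can share in sequence, it was looked for in RefSeq promoter windows (GRCm38.p6), which run from 250 bases before the start to 50 bases after it and were found for 30 of the 36 genes. The letters TCACGTGA occurred in the windows of 7 of the 30 genes (23.3%) and of 1.12% of 27025 genes in the table. The shorter CACGTG, which is contained in it, occurred in 10 of 30 (33.3%) against 8.09%, the additional genes being Atp6v0b, Ctsl and Lamp1. The 10-base form with a G before TCACGTGA and a C after it occurred in 0 of 30 against 0.37%. All 3 words read the same on both strands, and a match describes letters, not a bound site. The 8 matches to TCACGTGA, with 11 bases on either side and the palindrome in capitals, are shown because they are what 3 pump genes, a chloride exchanger, 2 cathepsins and a calcium channel have in common:
Atp6v0d1 chr8:105566050-105566079 -: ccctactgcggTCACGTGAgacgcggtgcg
Atp6v0e chr17:26676387-26676416 +: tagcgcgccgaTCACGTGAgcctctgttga
Atp6v1a chr16:44139373-44139402 -: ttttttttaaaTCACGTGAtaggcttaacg
Clcn7 chr17:25133386-25133415 +: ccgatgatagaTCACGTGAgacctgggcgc
Ctsa chr2:164833749-164833778 +: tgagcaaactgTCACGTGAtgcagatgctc
Ctsa chr2:164833766-164833795 +: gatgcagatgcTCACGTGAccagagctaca
Ctsd chr7:142387908-142387937 -: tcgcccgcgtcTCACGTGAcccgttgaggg
Mcoln1 chr8:3500462-3500491 +: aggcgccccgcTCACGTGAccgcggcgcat
Ctsa had 2 windows. The window at the annotated start of the gene (chr2:164832872) held no match. The other, at a start inside the gene, carried the palindrome on both sides of that start. In Ctsd and Atp6v1a the palindrome lay farther upstream, with its first base 99 and 132 bases before the start used for the window. For Atp6v1a that start lies inside the annotated gene, which extends upstream to chr16:44139702. The stretch printed for Atp6v1a thus lies within the gene. The 250 bases before the starts of this cathepsin and the pump's catalytic subunit are given in full, with the same letters in different surroundings:
Ctsd chr7:142387828-142388077 -: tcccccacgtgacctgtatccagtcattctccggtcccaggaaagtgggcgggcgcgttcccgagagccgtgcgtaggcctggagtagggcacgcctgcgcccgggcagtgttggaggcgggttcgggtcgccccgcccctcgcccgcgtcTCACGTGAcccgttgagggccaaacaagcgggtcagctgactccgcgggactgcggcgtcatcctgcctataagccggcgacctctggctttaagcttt
Atp6v1a chr16:44139260-44139509 -: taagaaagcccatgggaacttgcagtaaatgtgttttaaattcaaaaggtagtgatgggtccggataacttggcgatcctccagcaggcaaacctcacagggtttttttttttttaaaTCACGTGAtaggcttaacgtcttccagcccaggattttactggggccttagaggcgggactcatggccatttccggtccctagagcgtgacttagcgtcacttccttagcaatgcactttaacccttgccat

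After filtering, 5574 myeloid cells and 6912 and 10108 stromal cells of day 0 and day 5 were kept, with median depths of 6394.5, 9674 and 9112.5 UMIs. Before filtering, the libraries shared 22 to 35 cell barcodes in pairs. Classes were clusters named from marker genes, with the lysosome genes left out of the clustering. In the myeloid library they were an osteoclast-like class (365 cells, led by Mmp9, Ctsk, Acp5 and Dcstamp), a Vsig4 lining macrophage-like class (392), an Arg1 macrophage-like class (992), an interstitial macrophage-like class with Lyve1, Cd163 and Retnla (475), an MHC class II macrophage-like class (798), a dendritic-like class (518) and a monocyte-like class with Ly6c2 (817). Beside them stood cycling cells (229), an unnamed cluster led by Pcdh7 (341), and small clusters of NK and T cells and neutrophils that the sort had not removed. Further unnamed clusters of 94, 72 and 85 cells were kept as well. They are in the references below but not among the classes ranked. The stromal classes were fibroblasts (4713 cells at day 0 and 7787 at day 5), among which lining fibroblasts were a sub-cluster (148 and 169), tenocytes (905 and 1048) and osteoblasts (537 and 565), all named as marker-like. Levels are counts per 1000000 UMIs of the class (CPM). The kit counts 3′ ends, so CPM are per molecule and not scaled by length, and they are compared between classes of cells and not between genes.

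Most proton pump genes were higher in the osteoclast-like class than in any other named myeloid class. Of 16 pump genes, 13 had their highest level of the 7 named myeloid classes there, as did all 3 genes of chloride exchange and ruffled border traffic, whereas 0 of 8 cathepsins did. The summed level of the pump genes was 17233 CPM in the osteoclast-like class and 5494 CPM in all other kept cells of the library. These are called the other myeloid cells here and below, although 221 NK and T, 16 B, 34 endothelial-like and 23 fibroblast-like cells are among them. For the cathepsins the order was the opposite, at 3238 against 7604 CPM. These are descriptions of clusters and not tests. The share of all genes with their highest or lowest level in each class was not computed. Nothing particular to these genes is therefore read from such counts, here and below.

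**Figure D1:**
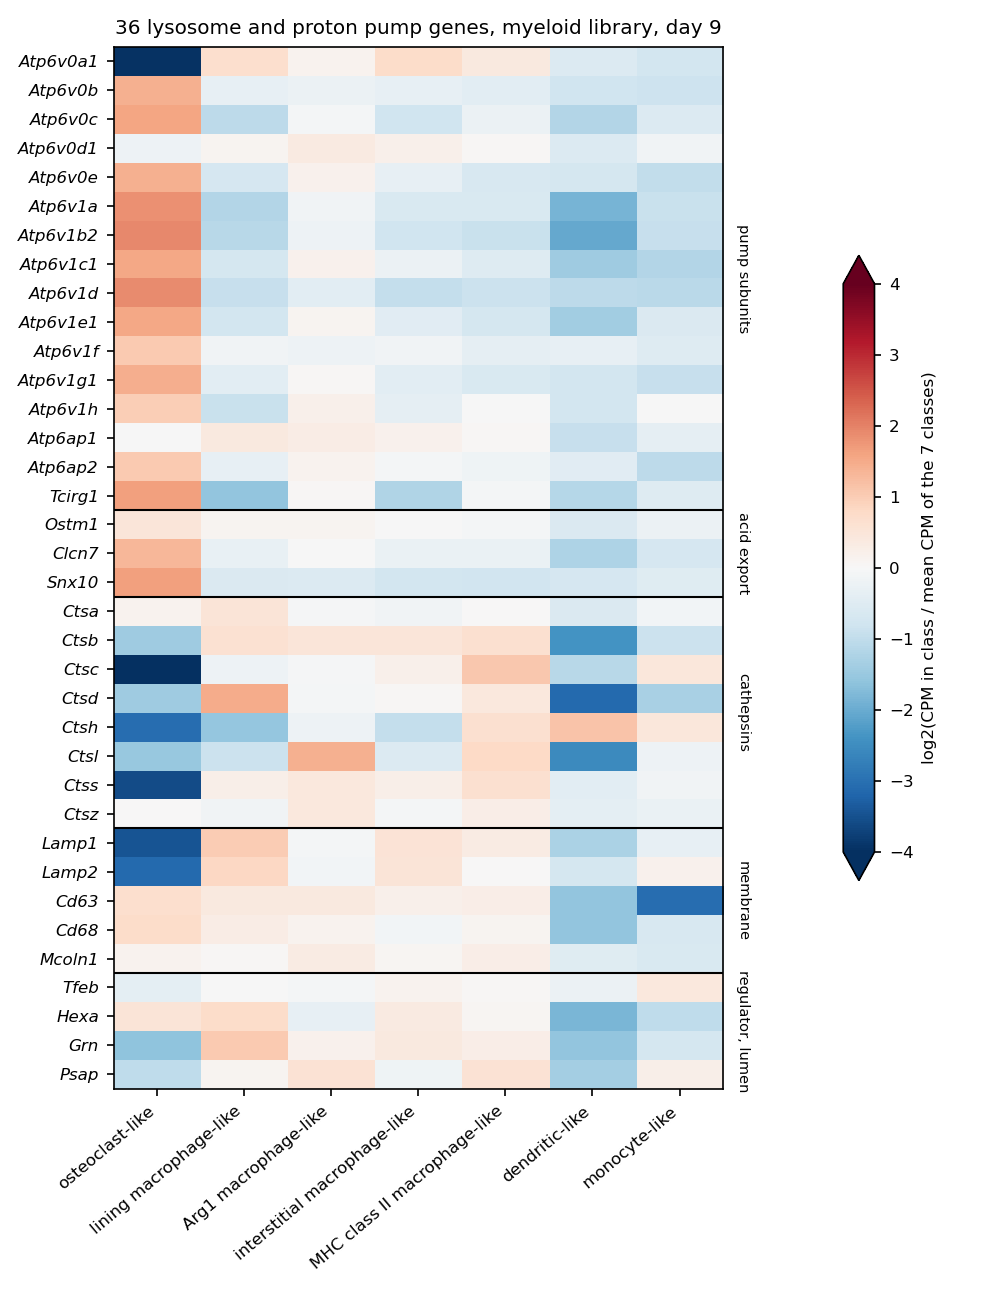
Each row is 1 of the 36 genes, ordered by role, each column is 1 of the 7 named myeloid classes of day 9, and colour gives the log2 ratio of the class's CPM to the mean CPM of the 7 classes (the scale ends at −4 and 4). The osteoclast-like column is red through most pump rows and the acid export rows, and blue in Atp6v0a1, Ctsc, Ctss, Ctsh, Lamp1 and Lamp2.

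In the cytosolic sector, Atp6v1a, the catalytic subunit, was at 1336 CPM in the osteoclast-like class, against 169, 346, 247, 250.4, 104 and 206 CPM in the lining, Arg1, interstitial, MHC class II, dendritic and monocyte classes, in that order here and below. Atp6v1b2, the B subunit that forms the ring with it, was at 1254 CPM in the osteoclast-like class, against 154, 288, 189.6, 177, 79.4 and 174 CPM. Atp6v1d, part of the rotating stalk, was at 749.8 CPM in the osteoclast-like class, against 106, 151, 103, 112, 97.4 and 95.7 CPM. In each of the 3 the osteoclast-like class stood above every other, and the Arg1 class came next. Against all other myeloid cells together the ratios were 4.71 (95% interval 4.60 to 4.83), 4.48 (4.37 to 4.59) and 4.72 (4.56 to 4.87). The other genes of the cytosolic sector followed with smaller ratios. These were 3.43 for Atp6v1c1, 3.63 for Atp6v1e1, 3.09 for Atp6v1g1, 2.49 for Atp6v1f and 2.12 for Atp6v1h. 

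In the membrane sector the choice of isoform differed between classes. Tcirg1 (ENSMUSG00000001750, chr19:3896050-3907133, mm10) encodes the a subunit used at the ruffled border, whose loss causes osteopetrosis. It was at 761 CPM in the osteoclast-like class, against 82.5, 255, 107, 232, 113 and 171 CPM. Atp6v0a1 (ENSMUSG00000019302, chr11:101009422-101063719), the widely used a subunit, ran the other way at 4.31 CPM in the osteoclast-like class, against 105, 73.6, 109.7, 87.6, 45.3 and 39.8 CPM. The osteoclast-like class was thus the highest of 7 for Tcirg1, with a ratio of 3.39 (95% interval 3.29 to 3.49) to the rest, and the lowest for Atp6v0a1, at 0.0833 (0.0606 to 0.112) of the rest. The lining and interstitial classes had the reverse order, with the highest levels of Atp6v0a1 and the lowest of Tcirg1. The sum over cells behind the low value of Atp6v0a1 was 45 UMIs.

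The d subunit, which joins the membrane sector to the stalk, has 2 genes as well. The common Atp6v0d1 varied less across the myeloid classes, at 150.1 CPM in the osteoclast-like class, against 189, 221, 202, 178, 120.0 and 158 CPM, and its ratio in the osteoclast-like class was 0.987 (0.934 to 1.04). Atp6v0d2, the isoform needed for osteoclast fusion, is not among the 36 genes and was read from a list of other pump isoforms. It was at 976 CPM in the osteoclast-like class, against 4.51, 31.6, 7.39, 9.90, 1.97 and 1.93 CPM. Of the pore-forming and small membrane subunits, Atp6v0c, the proteolipid ring, was at 4674 CPM in the osteoclast-like class, against 755, 1456, 896, 1327, 693 and 1065 CPM. Atp6v0b, another proteolipid of the ring, and Atp6v0e, a small stabilising subunit, were 3.08 and 2.99 times the level in other myeloid cells. Annotated pseudogenes of Atp6v0c may share its reads, so its value is less certain.

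**Figure D2:**
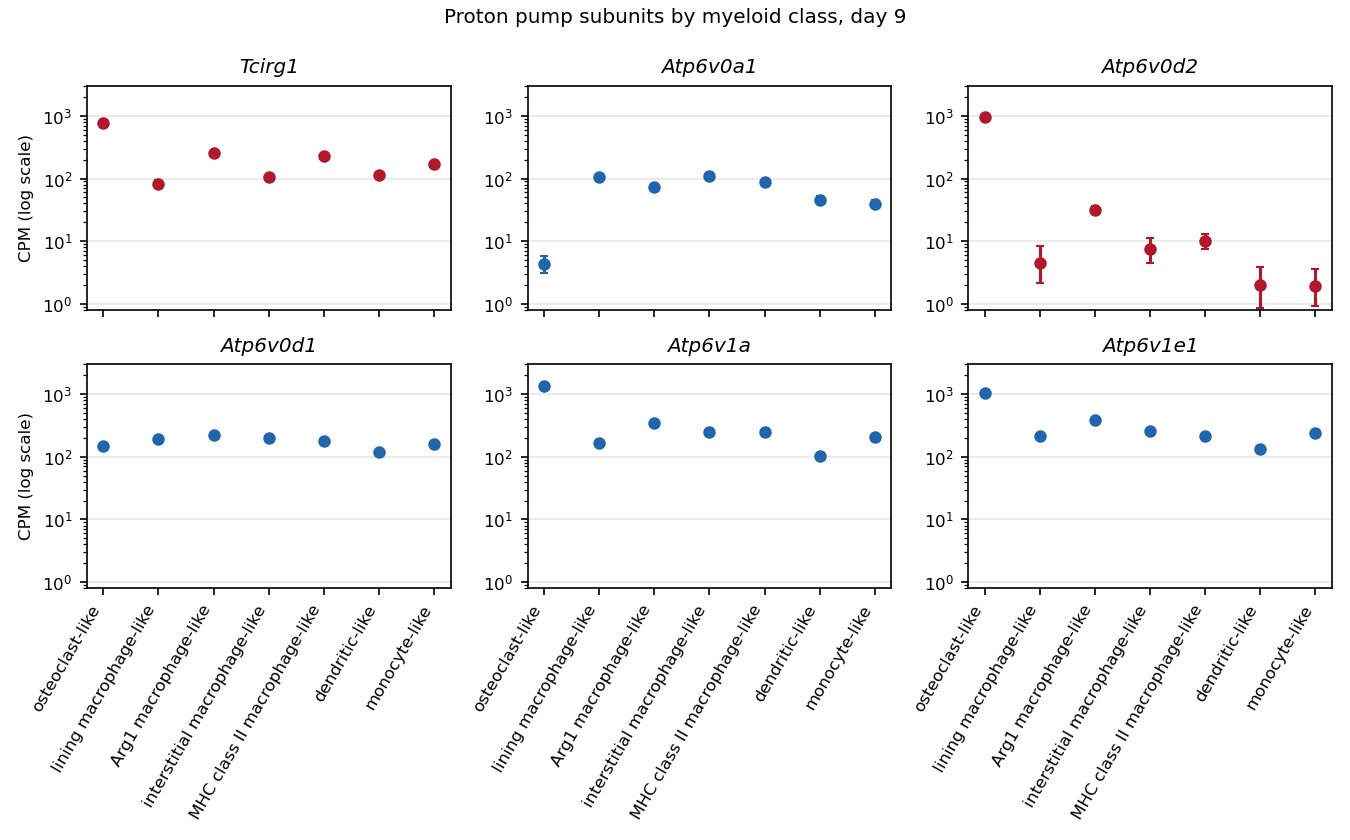
Levels of 6 pump genes in CPM on a log axis, 1 point per named myeloid class of day 9, with 95% counting intervals. Tcirg1 and Atp6v0d2 (red) are highest in the osteoclast-like class, where Atp6v0a1 is lowest, at 4.31 CPM, and Atp6v0d1 stays between 120.0 and 221 CPM throughout.

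The accessory subunits divided. Atp6ap2, the prorenin receptor that helps the pump assemble, was at 541 CPM in the osteoclast-like class, against 207, 288, 248, 231, 192 and 128 CPM, again highest in the osteoclast-like class. Atp6ap1, its partner in assembly, was at 322 CPM in the osteoclast-like class, against 427, 398, 365, 333, 172 and 255 CPM. The lining class was thus the highest, though its interval overlapped that of the Arg1 class. The ratio of the osteoclast-like class was 1.19 (1.14 to 1.23). Atp6v0a1, Atp6v0d1 and Atp6ap1 were the 3 pump genes whose highest class was not the osteoclast-like one.

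Acid secretion needs a counter-ion. Clcn7, the chloride-proton exchanger of lysosomes and the ruffled border, was at 91.3 CPM in the osteoclast-like class, against 29.7, 36.4, 30.2, 30.6, 15.7 and 23.2 CPM. Its partner Ostm1 was at 45.0 CPM in the osteoclast-like class, against 35.1, 34.7, 32.4, 30.5, 21.6 and 27.8 CPM, and the intervals of its highest classes overlapped. Snx10, a sorting nexin required for ruffled border traffic and mutated in a form of osteopetrosis, was at 636 CPM in the osteoclast-like class, against 136, 139.7, 121, 119, 128 and 146 CPM. Snx10 was 4.63 (95% interval 4.47 to 4.79) times its level in other myeloid cells and Clcn7 3.17 (2.91 to 3.45) times, while Ostm1 differed less, at 1.67 (1.496 to 1.86). The dendritic class was the lowest for Clcn7 and Ostm1.

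Counted over all 36 genes, 19 were at least 1.5-fold higher in the osteoclast-like class than in the other myeloid cells and 11 at least 1.5-fold lower, where 16.1% and 37.6% of all 13370 genes with 20 or more UMIs passed these sizes. The 19 were 13 of 16 pump genes, 3 of 3 in acid export, 0 of 8 cathepsins, 2 of 5 membrane genes (Cd63 and Cd68) and 1 of 4 in the last group (Hexa). The median log2 ratio was 0.80 over the 36 and -0.24 over all genes, and 1.63 over the pump genes. Osteoclast-like cells were the deepest of the named classes, with a median of 27117 UMIs against 4676 to 6933.5. With every cell thinned to 2000 UMIs and under the other settings tried, 15 to 20 of the 36 were higher. RNA of the myeloid marker list was lower in this class, with 8 of 10 genes at least 1.5-fold lower, as were 11 of 14 genes of the digestion stress list, and their part in the lower values was not tested.

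The cathepsins were low in the osteoclast-like class with 2 exceptions. Ctsc (ENSMUSG00000030560, chr7:88278024-88315861), the dipeptidyl peptidase that activates serine proteases of granules, was at 32.3 CPM in the osteoclast-like class, against 457, 518, 611, 1126, 247 and 731 CPM. Ctss, the cysteine protease that trims the invariant chain in antigen-presenting cells, was at 216 CPM in the osteoclast-like class, against 3037, 3477, 3023, 4063, 1937 and 2369.8 CPM. Ctsh, an aminopeptidase, was at 32.5 CPM in the osteoclast-like class, against 91.9, 232, 138, 422, 594 and 368 CPM. In all 3 the osteoclast-like class was the lowest of the 7, at 0.0636 (95% interval 0.0570 to 0.0708), 0.0963 (0.0923 to 0.1004) and 0.133 (0.119 to 0.148) of the other myeloid cells. Ctsb, Ctsd and Ctsl were lower by a smaller factor, with ratios of 0.470, 0.525 and 0.354. Ctsa, the carboxypeptidase that protects neuraminidase and galactosidase, and Ctsz were within 1.5-fold, at 1.37 and 1.11. Ctsk, the osteoclast's own cathepsin and a marker used to name the class, was at 11236 CPM there and is given for scale only.

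Of the 8 cathepsins 3 were highest in the MHC class II class, 2 in the lining class, 2 in the Arg1 class and 1 in the dendritic class, and 0 in the interstitial or monocyte class. Ctsd, the aspartic protease, was at 726 CPM in the osteoclast-like class, against 5452, 1871, 2006, 2603, 228 and 801 CPM, and the lining class exceeded the next, the MHC class II class, beyond their counting intervals. Ctsl was at 166 CPM in the osteoclast-like class, against 261, 1268, 327, 825, 82.1 and 419 CPM, highest in the Arg1 class. Ctsc and Ctss were highest in the MHC class II class, and Ctsh in the dendritic class. Ctsb, the most general of the cysteine cathepsins, was at 805 CPM in the osteoclast-like class, against 3265, 2998, 2966, 3369.5, 412 and 1182 CPM, so the 4 macrophage classes lay close together and the dendritic class was lowest. The dendritic class was the lowest of 7 for 5 of 8 cathepsins, and the osteoclast-like class for the other 3.

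**Figure D3:**
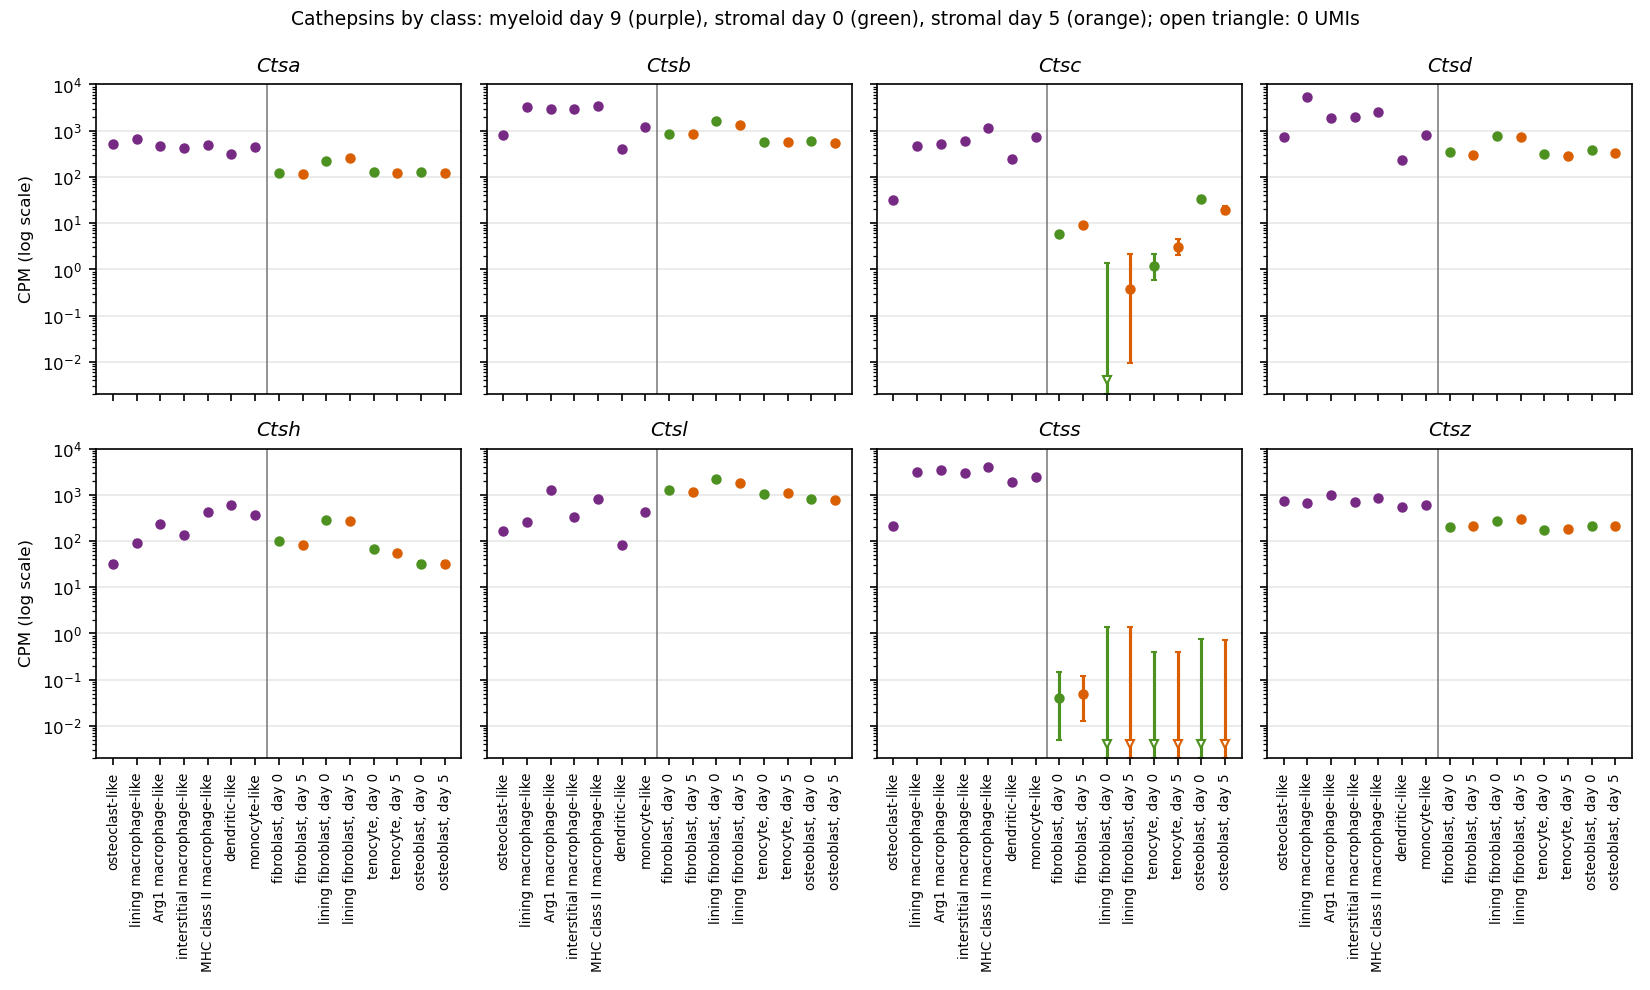
Levels of the 8 cathepsins in CPM on a log axis, with 95% counting intervals, in the 7 myeloid classes of day 9 (purple) and in 4 stromal classes at day 0 (green) and day 5 (orange); an open triangle stands for 0 UMIs and is placed at the bottom. Ctss falls from 3023 CPM or more in macrophages to 0 in lining fibroblasts, tenocytes and osteoblasts, and all fibroblasts held 2 and 4 UMIs, while Ctsl in fibroblasts lies near the Arg1 class.

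The membrane proteins did not move as a block. Lamp1 was at 67.1 CPM in the osteoclast-like class, against 1499.5, 706, 1077, 933, 306 and 589 CPM, and Lamp2, which also serves chaperone-mediated autophagy, was at 52.0 CPM in the osteoclast-like class, against 793, 411, 637, 454, 273 and 498 CPM. Both were lowest in the osteoclast-like class, at 0.116 (95% interval 0.108 to 0.125) and 0.150 (0.138 to 0.164) of other myeloid cells, and highest in the lining class. Cd63, a tetraspanin of late endosomes, was at 1329.5 CPM in the osteoclast-like class, against 1084, 1096, 958, 1000.5, 281 and 101 CPM, so the monocyte class stood out as low and the osteoclast-like class was the highest. Cd68, the LAMP-like protein used as a macrophage marker, was at 851 CPM in the osteoclast-like class, against 629, 563, 471, 542, 168 and 326 CPM. Mcoln1, the calcium release channel, was between 10.6 and 20.5 CPM.

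Of the lumen and its regulation, Grn, the progranulin precursor, was at 428 CPM in the osteoclast-like class, against 2686, 1479.6, 1720.0, 1574, 439 and 803 CPM, highest in the lining class. Psap, the saposin precursor, was at 1411 CPM in the osteoclast-like class, against 3102, 4299.8, 2543, 4268, 1112 and 3416 CPM, with the Arg1 and MHC class II classes at the top. Hexa, a subunit of hexosaminidase, was at 609 CPM in the osteoclast-like class, against 701, 335, 539, 441, 120.0 and 208 CPM, with the lining and osteoclast-like classes highest. Tfeb, the regulator itself, lay between 19.8 and 34.4 CPM, the top value in the monocyte class.

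Of the other lysosome genes some were higher and some lower, to be read against the same 16.1% and 37.6% of all genes. In the osteoclast-like class 12 of 30 other hydrolases were at least 1.5-fold higher and 10 lower, among them Arsb, a sulfatase, at 412 against 74.1 CPM (5.56 times), Glb1, a galactosidase (4.10 times), and Lipa, the acid lipase (0.289 times). Of 16 other membrane genes 4 were higher and 5 lower, with the glucocerebrosidase receptor Scarb2 at 0.130 and the cholesterol carrier Npc2 at 1.82 times. Of 13 genes of the TFE family and the mTORC1 platform 3 were higher and 2 lower, with Mitf, a known osteoclast factor, at 2.11 and Tfe3 at 0.520 times. Of 6 other cathepsins 1 was higher and 4 lower, with Lgmn, the asparaginyl protease, at 0.150 times. The lower counts among hydrolases and membrane genes are thus near or below the share of all genes.

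The unnamed Pcdh7-led cluster and the cycling cells lay between the osteoclast-like class and the other named classes for some pump genes, not all. Atp6v1a was at 542 and 407 CPM in them and Tcirg1 at 441 and 319.8 CPM, while Atp6v0a1 was at 9.30 and 12.9 CPM. Atp6ap1, at 229 and 182 CPM in them, was below the osteoclast-like class and every macrophage class. In the cycling cells Atp6v1f (308 CPM) and Atp6v1h (91.4 CPM) were below the Arg1 class (315 and 104 CPM). Ctsk in the Pcdh7-led cluster and the cycling cells stood at 2905 and 2388 CPM, between the osteoclast-like class and the 610.5 CPM of the Arg1 class. In the Pcdh7-led cluster 1 of 36 genes was at least 1.5-fold higher than in the other myeloid cells (11.3% of all genes) and 12 lower (32.2%). That reference holds the osteoclast-like and cycling cells, and no count without them is given for this cluster. These 3 groups were also the deepest, with median depths of 14707 to 27117 UMIs, so the next comparisons are given with and without them in the reference.

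The lining class had the highest levels of Ctsd, Lamp1, Lamp2 and Grn. Of the 36 genes 10 were at least 1.5-fold higher than in other myeloid cells and 14 lower, against 23.6% and 31.8% of all genes, so the counts were near those of genes in general. Ctsd was 5.07 (95% interval 4.97 to 5.17) times, Lamp1 3.44 (3.32 to 3.57) times and Grn 3.28 (3.19 to 3.37) times. The lower genes were mostly pump genes, 11 of 16, with Tcirg1 at 0.243. Without osteoclast-like, Pcdh7-led and cycling cells in the reference, 10 were past the size upward (22.9% of all genes) and 4 downward (26.4%), and most pump genes were then within 1.5-fold, Atp6v0b for example at 1.19, while Ctsd was still 3.94 times and Tcirg1 0.464 times. Of 30 other hydrolases 15 were higher and 2 lower, with Galc, the galactocerebrosidase, 6.05 times.

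In the Arg1 class 11 of 36 genes were at least 1.5-fold higher (8.51% of all genes) and 3 lower (33.4%), with 5 of 8 cathepsins among the 11. The 11 became 6 with means of cell CPM, with cells thinned to 2000 UMIs or with at least 2 UMIs of the class gene required. Ctsl was 4.32 (95% interval 4.20 to 4.44) times its level in other myeloid cells, and Ctsb and Psap 2.24 and 2.07 times. Without the 3 groups in the reference 15 were higher (7.1%) and 0 lower (29.7%), and 9 of the 15 were pump genes, led by Atp6v1c1 at 2.02 and Atp6v1b2 at 1.92 times. Atp6v1b2 had been 0.585 times with them, so its direction depends on that reference. Of 30 other hydrolases 7 were higher and 3 lower, with Lipa 2.61 and Arsb 0.106 times. 

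The MHC class II class had 11 genes higher (9.98%) and 10 lower (28.4%), and without the 3 groups 8 higher (5.5%) and 0 lower (21.1%). Ctsc was 3.34 (95% interval 3.24 to 3.44) times and, without those groups, 2.33 times. In the interstitial class 9 were higher (20.7%) and 11 lower (25.5%), and without those groups 4 were higher (20.9%), namely Hexa, Atp6v0a1, Lamp1 and Lamp2, and 3 lower (21%), namely Ctsh, Ctsl and Tcirg1. Both shares for the interstitial class lie near or below those of all genes.

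The dendritic class was low in most of these genes. Only Ctsh was at least 1.5-fold higher (15.7% of all genes), at 3.47 (95% interval 3.31 to 3.63) times, and 25 of 36 were lower (37.3%), with Atp6v1b2 at 0.159, Ctsd at 0.171 and Ctsl at 0.188 times. Without the 3 groups in the reference 20 were lower (31.6%) and Ctsh was the 1 gene higher (13.5%). In the monocyte class 5 were higher (13%), which were Ctsh, Ctsc, Lamp2, Tfeb and Psap, and 18 lower (42.8%). Without those groups 0 were higher (8.29%) and 9 lower (35.7%), and Cd63 was lowest in both, at 0.109 (95% interval 0.0997 to 0.119) and 0.127 (0.116 to 0.139) times.

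In the stroma the same genes were expressed at lower summed levels, and Ctss marked the boundary. Ctss (ENSMUSG00000038642, chr3:95526786-95556405) gave 0 UMIs in lining fibroblasts, tenocytes and osteoblasts of both days, which allowed at most 0.397 to 1.41 CPM (upper 95% limits), and 2 and 4 UMIs in all fibroblasts. The myeloid marker list summed to 3.18 and 2.48 CPM in fibroblasts of day 0 and day 5, so RNA of myeloid cells was near 0 in them. Ctsl was at 1288 and 1175 CPM in fibroblasts, 2243 and 1843 in lining fibroblasts, 1048 and 1068 in tenocytes and 812 and 764 in osteoblasts, day 0 first. Ctsb was at 869.6 and 848 CPM in fibroblasts, 1603 and 1349.9 in lining fibroblasts, 578 and 577 in tenocytes and 611 and 537 in osteoblasts. For Ctsl the fibroblast levels thus lay near the 1268 CPM of the Arg1 class and exceeded those of the 6 other myeloid classes, and for Ctsb they were below those of the macrophage classes; these levels come from libraries of different sorts and days.

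Lining fibroblasts, the Prg4 cells at the joint surface, had higher RNA levels of many of these genes than other fibroblasts in both stromal libraries. This comparison was added after the data had been seen. At day 0, 19 of 35 genes were at least 1.5-fold higher (16.4% of all genes) and 1 lower (29.7%). At day 5 there were 17 higher (14.3%) and 2 lower (30.1%). In common were 15 genes, 78.9% of the first set and 88.2% of the second. They were 7 pump genes (Atp6v0c, Atp6v0e, Atp6v1b2, Atp6v1d, Atp6v1e1, Atp6v1f and Atp6v1g1), 5 cathepsins (Ctsa, Ctsb, Ctsd, Ctsh and Ctsl), Lamp1, Hexa and Psap. The overlap of the 2 days over all genes is not given here, so nothing particular to these genes is read from it. The median log2 ratio over the genes was 0.63 and 0.57, against -0.11 and -0.14 over all genes. 

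Hexa was at 332 CPM in lining against 98.6 CPM in other fibroblasts at day 0 and at 419 against 121 CPM at day 5, ratios of 3.37 (95% interval 3.13 to 3.62) and 3.47 (3.26 to 3.70). Ctsh was at 291 against 89.1 CPM and 265 against 74.2 CPM, ratios of 3.27 (3.03 to 3.53) and 3.58 (3.30 to 3.87). Atp6v1e1 was at 161 against 57.6 CPM and 191 against 75.7 CPM. In all 3 the lining level was above that of other fibroblasts in each library by more than the counting intervals. Ctsc went the other way, with 0 and 1 UMIs in lining fibroblasts against 6.21 and 9.53 CPM in the others. Neither Tcirg1 nor Lamp2, Clcn7, Mcoln1 or Tfeb was 1.5-fold different on either day. Lining fibroblasts were deeper, with median depths of 17515 and 14302 UMIs, and their myeloid marker list summed to 0.368 and 0.383 CPM, with 9 of 10 genes at 0 on each day. Under the other settings 18 to 20 genes were higher at day 0 and 14 to 19 at day 5. Other lysosome genes were higher as well, 11 of 30 hydrolases on each day with 2 lower, and 9 and 7 of 16 membrane genes with 1 and 0 lower.

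**Figure D4:**
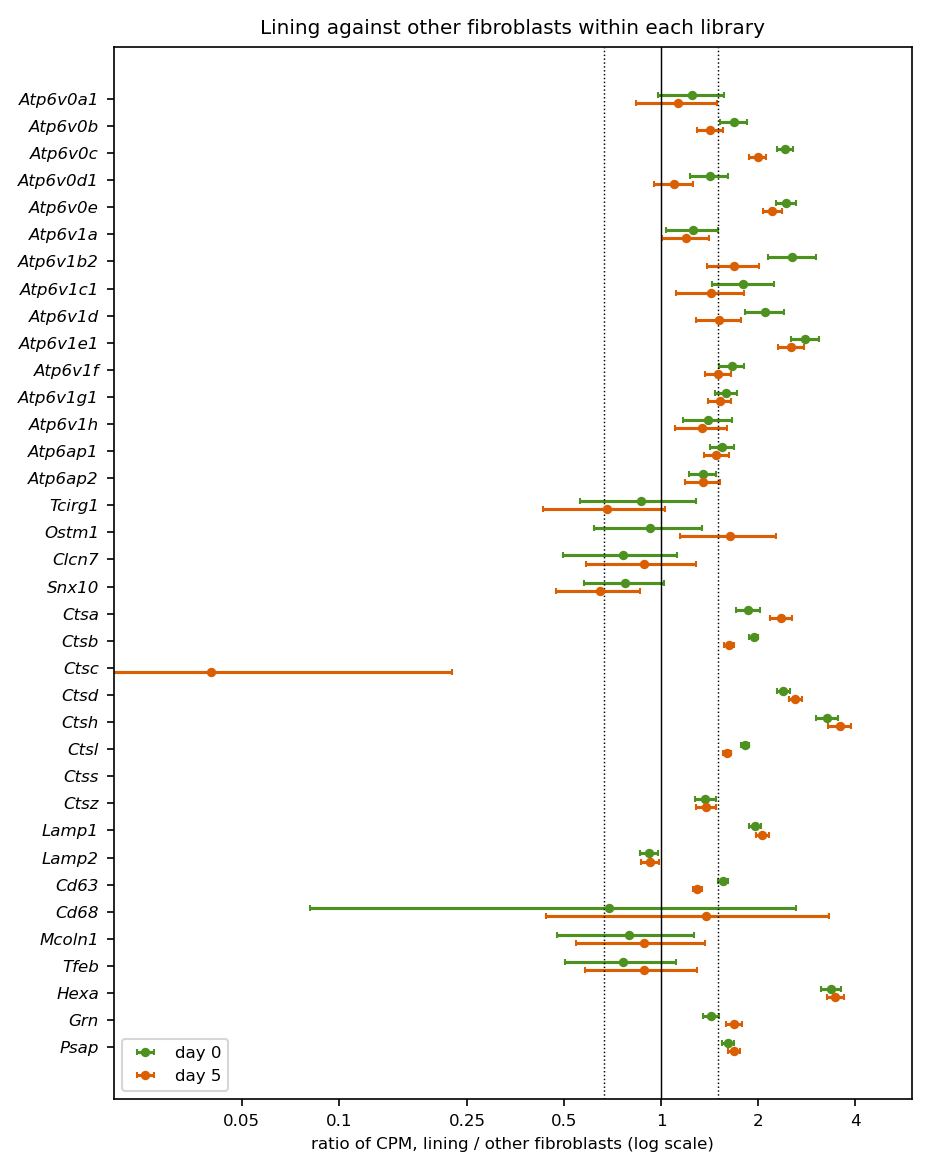
Ratio of CPM in lining fibroblasts to other fibroblasts on a log axis, for each gene with 20 or more UMIs, at day 0 (green) and day 5 (orange), with 95% counting intervals and dotted lines at 1.5-fold in both directions. Most points lie right of 1, Hexa and Ctsh farthest; Ctsc at day 0 had 0 UMIs in lining fibroblasts and is not drawn, and its interval at day 5 runs past the left edge.

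Between day 0 and day 5 these genes differed little. In fibroblasts 2 of 35 genes were past 1.5-fold, 1 in each direction, where 18.3% of all genes were (10.6% higher and 7.78% lower), and the median log2 ratio was 0.01, as it was over all genes at 0.01. In lining fibroblasts 0 of 33 were higher (8.92% of all genes) and 2 lower (7.36%), with 16.3% of all genes past the size either way. In tenocytes 2 of 35 were higher (10.1%) and 1 lower (9.44%, and 19.5% either way), and in osteoblasts 0 of 34 were higher (7.63%) and 3 lower (5.59%, and 13.2% either way). Summed over the pump genes, fibroblasts had 1359 CPM on day 0 against 1388 on day 5, and the sum of the cathepsins 2939 and 2747 CPM. Of 30 other hydrolases 1 was past 1.5-fold upward and 1 downward in fibroblasts, and of 16 other membrane genes 0.

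Atp6ap2 (ENSMUSG00000031007, chrX:12587759-12617051) was lower at day 5 in all 4 classes, past 1.5-fold in 3 of them. It was at 119 and 76.2 CPM in fibroblasts, 157 and 101 in lining fibroblasts, 213 and 127 in tenocytes and 92.1 and 63.1 in osteoblasts, day 0 first. The ratios of day 5 to day 0 were 0.640 (95% interval 0.617 to 0.663), 0.645 (0.551 to 0.754), 0.595 (0.553 to 0.640) and 0.685 (0.591 to 0.793). Across the 9 fibroblast sub-clusters with 50 or more cells on both days it was below 1 in 9, between 0.600 and 0.866, with an interval below 1 in 8. The share of all genes that run one way in 9 of 9 was not computed, and these sub-clusters are not replicates. In the Saa3-led fibroblasts, of which 11 cells were found at day 0 and 1352 at day 5, it was 0.632 (0.591 to 0.675) times the level of other day 5 fibroblasts. Without Saa3-led and cycling fibroblasts the ratio of Atp6ap2 at day 5 to day 0 was 0.718 (0.691 to 0.745), and 0 of 35 genes were then past 1.5-fold (16.8% of all genes). With means of cell CPM or with thinned cells, Atp6ap2 was likewise within 1.5-fold in fibroblasts.

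Summed over cells, Ctsc was higher at day 5 in fibroblasts and tenocytes and lower in osteoblasts, but each direction turned under another setting. It was at 5.87 and 9.25 CPM in fibroblasts, 0 and 0.383 in lining fibroblasts, 1.21 and 3.12 in tenocytes and 33.9 and 19.8 in osteoblasts, so osteoblasts had the highest level of the 4 on both days. The ratios were 1.58 (95% interval 1.38 to 1.81) in fibroblasts, 2.57 (1.25 to 5.71) in tenocytes, from 11 and 29 UMIs, and 0.584 (0.4504 to 0.754) in osteoblasts. The tenocyte ratio was 1.10 with the looser and 0.840 with the stricter cell filter, and the osteoblast ratio 1.03 with cells thinned to 2000 UMIs. The fibroblast ratio was 0.746 with sub-clusters weighted equally and, with Saa3-led and cycling cells left out, 0.842 (0.714 to 0.994), and Ctsc in Saa3-led cells was 3.35 (2.90 to 3.86) times that of other day 5 fibroblasts. Of the 36 genes, 2 were at least 1.5-fold higher in Saa3-led cells (12.6% of all genes), Ctsc and Atp6v0d1, and 2 lower (29.1%), Atp6ap2 and Mcoln1. Neutrophil RNA was higher there too, 78.4 against 2.99 CPM summed over 7 genes, and the myeloid list 6.25 against 1.28 CPM; their part in the level of Ctsc was not tested.

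For 5 other genes the ratio was on 1 side of 1 in every fibroblast sub-cluster compared. Hexa was higher at day 5 in 9 of 9, by 1.24 to 1.60 times, with all 9 intervals above 1, and Atp6v1e1 in 9 of 9, with 8 intervals above 1, by 1.00 to 1.48 times. Lamp2 was above 1 in 9 of 9 as well, by 1.02 to 1.15 times, but only 4 intervals lay above 1. Atp6v0a1 and Lamp1 were below 1 in 9 of 9, from 0.663 to 0.998 and from 0.789 to 0.977, with 5 and 7 intervals below 1. The share of all genes that run one way in 9 of 9 was not computed, so nothing particular to these genes is read from the counts. Sub-clusters of 1 library share its cells' handling and depth, so these counts describe the pair of libraries and are not replicates.

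In tenocytes Atp6v1a went from 37.8 CPM on day 0 to 61.2 CPM on day 5, a ratio of 1.62 (1.41 to 1.86), and it was 1.25 and 1.74 in the 2 tenocyte clusters. Osteoblasts had 3 genes past 1.5-fold, all lower at day 5 in the sums over cells. They were Ctsc, Atp6v0a1 at 0.608 (0.439 to 0.837) from 102 and 66 UMIs, and Ostm1 at 0.600 (0.386 to 0.922) from 58 and 37 UMIs. Without doublet removal only Ctsc was past the size, with means of cell CPM 0 were, and thinned to 2000 UMIs the ratios of Ctsc, Atp6v0a1 and Ostm1 were 1.03, 0.954 and 0.954. In lining fibroblasts the 2 lower genes were Atp6ap2 and Atp6v0a1, the latter at 0.663 (0.457 to 0.953). The count in lining fibroblasts was 1 to 4 over the settings tried.

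**Figure D5:**
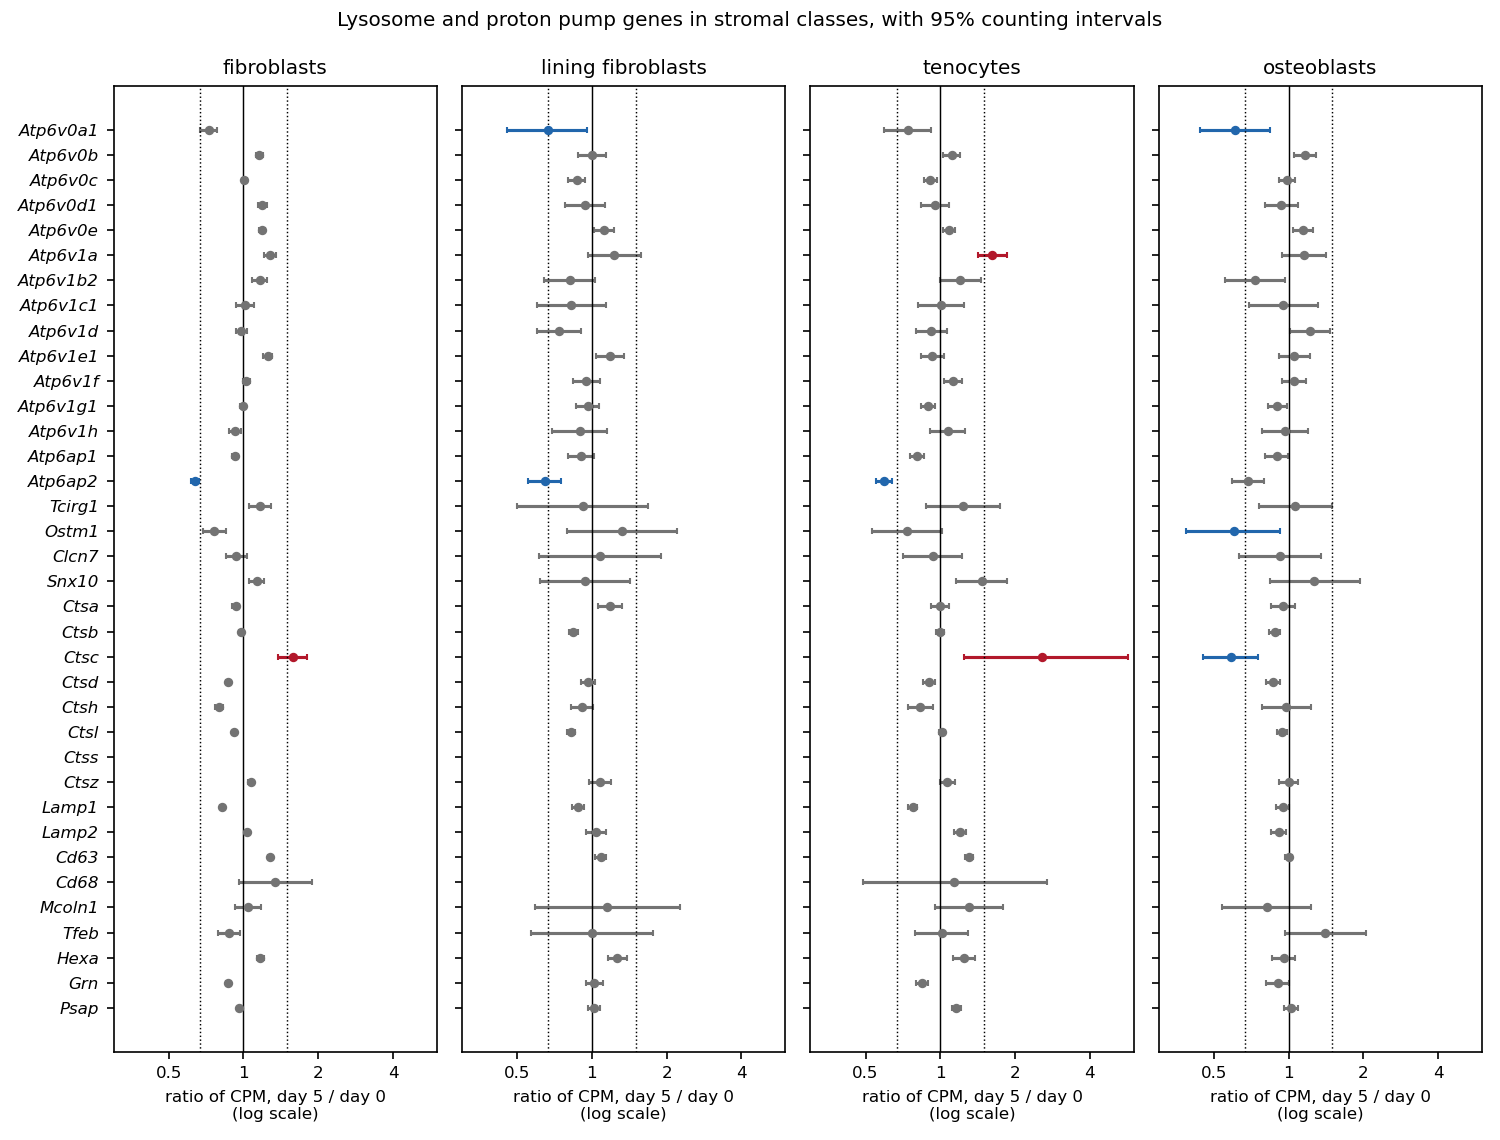
Ratio of CPM at day 5 to day 0 on a log axis for each gene with 20 or more UMIs in 4 stromal classes, with 95% counting intervals; red and blue points are at least 1.5-fold higher or lower, and dotted lines mark that size. Most points lie between the dotted lines, Atp6ap2 is left of 1 in all 4 panels, and Ctsc is right of 1 in fibroblasts and tenocytes and left of 1 in osteoblasts.

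Other members differed more between classes than between days. Cd63 was at 829 and 1055 CPM in fibroblasts, 1249 and 1354 in lining fibroblasts, 664 and 867 in tenocytes and 1670.0 and 1669.9 in osteoblasts (highest in osteoblasts on both days). Lamp1 was at 484 and 397 CPM in fibroblasts, 900.3 and 792 in lining fibroblasts, 515 and 399 in tenocytes and 445 and 422 in osteoblasts (highest in lining fibroblasts on both days). Grn was at 335 and 289.8 CPM in fibroblasts, 468 and 479 in lining fibroblasts, 278 and 235 in tenocytes and 153 and 138 in osteoblasts, lowest in osteoblasts. Tcirg1, so marked in osteoclast-like cells, was at 10.99 and 12.8 CPM in fibroblasts, and Cd68 at 1.05 and 1.40 CPM. Outside the 36 genes, the inhibitor cystatin C, Cst3, was highest in osteoblasts, at 25567 and 26709.6 CPM against 7097 and 7511 CPM in fibroblasts.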

How the data were processed

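The authors deposited raw counts of unique molecules (UMIs) per gene and cell, made, per the file headers, by Cell Ranger 6.0.1 against the prebuilt 10x mm10 reference that the labels' protocols name; the submitters' processing notes also name Seurat 4.3.0. Barcodes under 500 detected genes, under 1000 UMIs or above 10% mitochondrial UMIs were removed. The Scrublet threshold called 0, 2 and 1117 cells in the myeloid, day 0 and day 5 libraries, so the cells with the highest doublet scores were removed at 0.8% per 1000 barcodes instead (371, 456 and 1064 cells). Cells were clustered with scanpy 1.11.5 on 2000 variable genes less the lysosome lists, with 30 components, 15 neighbours and Leiden resolution 1, the stromal libraries together without integration and fibroblasts again at 0.5. Clusters were named from at least 3 detected markers. UMIs were summed per class and library and given as CPM with exact Poisson intervals, and ratios with exact conditional binomial intervals. Totals were 69430907, 77842586 and 122224428 UMIs. With 1 library per group no test was run, and a 1.5-fold difference in a gene with 20 or more UMIs over both sums was used as a size. Levels by class are printed for many of the members past that size or at an end of their role group, and ratios alone for others, such as Atp6v1c1 and Atp6v0b. Other lists are given by their counts and, by name, their highest and lowest ratios. A gene of these other lists that this rule names is not reported here. The members and lists were chosen with earlier results of these data known. The scripts were tested on simulated data. Alternatives were other cell filters, doublets kept, lysosome genes used in clustering, other resolutions, edgeR 4.0.16 TMM and DESeq2 1.42.0 size factors, means of cell CPM, thinning to 2000 UMIs, other references and other cluster weights.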

Additional observations from a re-analysis of the deposited data

Results flagged for a closer look

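The ratio of Ctsc at day 5 to day 0 lay on opposite sides of 1 in different stromal classes when UMIs were summed over cells. It was 2.57 in tenocytes, from 11 and 29 UMIs at day 0 and day 5, and 1.58 in fibroblasts, but 0.584 in osteoblasts. The opposition did not hold under every setting: the fibroblast ratio was 0.842 without Saa3-led and cycling cells and 0.746 with sub-clusters weighted equally, the tenocyte ratio 0.840 with the stricter cell filter, and the osteoblast ratio 1.03 with cells thinned to 2000 UMIs. The difference between classes was not tested, since each class has 1 library per day.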

How the results depend on the processing

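Of 152 alternative counts of members past 1.5-fold, 124 stayed within 1.5 times the reported count and 28 did not. No paired analysis was possible because each group has 1 library. For day 5 against day 0, the 2 members in fibroblasts became 1 with a looser cell filter, without doublet removal or with sub-clusters weighted equally, and 0 with means of cell CPM, thinning, or without Saa3-led and cycling cells. The 2 in lining fibroblasts became 1 with a looser or stricter filter, without doublet removal, with lysosome genes in the clustering or TMM scaling, and 4 with means of cell CPM, thinning or no count minimum. The 3 in tenocytes became 5 with clusters weighted equally, and the 3 in osteoblasts became 1 without doublet removal and 0 with means of cell CPM. For members higher in a myeloid class, 11 became 6 in Arg1 macrophages with means of cell CPM, thinning or a minimum of 2 UMIs of the class gene. In interstitial macrophages 9 became 4 with means of cell CPM or the reference without osteoclast-like, Pcdh7-led and cycling cells. In dendritic cells 1 became 2 without doublet removal. In monocytes 5 became 3 at resolution 0.5, 1 with means of cell CPM or the class gene minimum, and 0 with thinning or that reference. At resolution 0.5 no lining macrophage class was found. Of 2500 values of members past 1.5-fold under the alternatives, 28 changed direction. Ctsc in fibroblasts was 0.746 with sub-clusters weighted equally and 0.842 without Saa3-led and cycling cells, in tenocytes 0.840 with the stricter filter, and in osteoblasts 1.03 when thinned. Without osteoclast-like, Pcdh7-led and cycling cells in the reference the ratios were, in lining macrophages, 1.19 for Atp6v0b, 1.09 for Atp6v1g1 and 1.09 for Snx10. In Arg1 macrophages they were 1.92 for Atp6v1b2, 1.499 for Atp6v1d, 1.15 for Snx10 and 0.933 for Lamp2. In interstitial macrophages they were 1.21 for Atp6v0b, 1.14 for Atp6v0e, 1.15 for Atp6v1a, 1.07 for Atp6v1b2, 1.05 for Atp6v1e1 and 1.09 for Atp6v1g1. They were 1.03 for Snx10 in dendritic cells, and 1.03 for Atp6v0c, 1.00 for Tcirg1 and 1.21 for Snx10 in monocytes. Atp6v1b2 in Arg1 macrophages was 1.03 with means of cell CPM. Ctsd in interstitial macrophages was 0.715 with the looser filter and 0.748 with lysosome genes in the clustering. In dendritic cells Lamp1 and Cd63 were 1.18 and 1.23 without doublet removal and 1.08 and 1.24 at resolution 2.0. Beyond the changed reference and cells, the cause was not tested. Intervals cover counting error only, and no spread between animals could be estimated.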
